A study of Mus musculus with 6 samples.

Results

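The inflammasome transcripts described here are 10 genes, *Nlrp3*, *Mefv*, *Nlrp1b*, *Nlrc4*, *Aim2*, *Pycard*, *Casp1*, *Casp4*, *Gsdmd* and *Nek7*, out of the 19309 genes of the deposited count matrix. They were taken by symbol from a list of inflammasome components that was drawn up with earlier results of these data known, and each symbol was carried by 1 gene. The counts came from bulk RNA sequencing of macrophages grown from bone marrow, with 1 library for each of 3 sEH-/- mice and 3 wild-type mice. The soluble epoxide hydrolase (sEH), encoded by *Ephx2*, turns epoxides of polyunsaturated fatty acids into diols, and the study asked which transcripts depend on it in macrophages repolarized by TGF-β1. Cells of both genotypes had first spent 7 days with GM-CSF and M-CSF, were then treated with IFN-γ and LPS (M1 state), and finally received TGF-β1 in addition (M2c state). Per the labels, M1 polarization had lasted 24 h before TGF-β1 was present for 48 h, whereas the methods state 12 h of M1 polarization and TGF-β1 for either 24 or 48 h. In both groups, therefore, every library came from cells that had seen LPS, the usual priming stimulus of inflammasome genes. Bone marrow was taken from mice of 8 to 10 weeks according to the methods, which describe matched littermates, mostly females, and an engineered *Ephx2* allele crossed to a Cre allele at the ROSA26 locus. The labels give neither the sex of each mouse nor a batch.

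Inflammasomes are cytosolic complexes that turn danger signals into cell death and cytokine release. A sensor binds or detects its stimulus, assembles with the adaptor ASC (*Pycard*) and recruits caspase-1 (*Casp1*), which cleaves the precursors of IL-1β and IL-18 as well as gasdermin D (*Gsdmd*), whose fragment forms pores in the plasma membrane. In macrophages, the amount of some components, Nlrp3 above all, is set by prior exposure to LPS or cytokines, while other components are held ready in resting cells.

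Of the 10 transcripts, 4 were called higher in sEH-/- than in wild-type macrophages and 0 were called lower, a call being an adjusted p below 0.05 from edgeR's quasi-likelihood test (Benjamini-Hochberg) with a change of more than 1.5-fold. Over all 13785 genes tested, 2.61% were called, 1.51% higher and 1.10% lower. The share of 4 of 10 was above this background, but the members were listed with earlier results of these data known. It is therefore no independent test. The 4 called transcripts were all sensors, *Nlrp3*, *Mefv*, *Nlrp1b* and *Nlrc4*. The remaining sensor, *Aim2*, and the 5 members grouped here as other components, *Pycard*, *Casp1*, *Casp4*, *Gsdmd* and *Nek7*, were not called. *Casp4* was placed in this group although its product, caspase-11, itself binds cytosolic LPS. The median log2 fold change was 0.87 for the 5 sensors and 0.11 for the 5 other members, while that of all genes tested was −0.00092. At an unadjusted p below 0.05, 6 members were higher and 0 lower by edgeR, where 11.1% and 12.2% of all genes tested were, and DESeq2 and limma-voom likewise called 4 members higher and 0 lower.

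The library totals lay between 4400197 and 6096440 counts. *Ephx2* had 4, 2 and 1 counts in the sEH-/- libraries against 26, 49 and 57 counts in the wild-type libraries, as the labels would have it. The 7 macrophage markers, among them *Adgre1*, *Csf1r* and *Cd68*, were present in every library, with a summed level of 1802 to 2253 CPM (counts per 1000000 of the normalized library total) in sEH-/- against 1621 to 2043 CPM in wild-type cells, and 0 of them were called by edgeR. The marker *Lyz2* had 1153 to 1173 counts in every library over 1316 exonic bases. That is near the limit of about 1 count per base described below, so its counts could hardly differ. Counts of *Cd68* (1082 to 1159) and *Mertk* (1451 to 1605) also varied little, while those of *Fcgr1* (913 to 1346) varied more. Whether the limit acts on these markers was not tested. Of the 10 neutrophil markers, 7 were in the matrix and 0 were called by edgeR, although their summed level did not overlap between the genotypes. They summed to 28.4 to 32.1 CPM in sEH-/- against 17.6 to 21.2 CPM in wild-type libraries, most of it from *S100a8*, the only one with enough counts to be tested (log2 fold change 0.54, adjusted p = 0.057 by edgeR), while *Cxcr2* had at most 1 count in any library. The part of these cells in the inflammasome results was not tested. Dendritic cell markers summed to 27.0 to 57.7 CPM in sEH-/- against 42.2 to 58.9 CPM in wild-type libraries, and stromal markers to 11.4 to 29.9 and 9.45 to 62.3 CPM, with 0 called in either list. Lymphocyte markers reached at most 0.81 CPM. In bulk samples, fewer cells of a type and less RNA per cell cannot be told apart.

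The sequence upstream of the transcript start is shown for *Nlrp3*, *Mefv* and *Nlrp1b*, the called transcripts with the largest differences, and for *Casp4*, the only member whose window held one of the motifs searched. Windows of RefSeq (build GRCm38.p6, 250 bases before to 50 bases after a start) were given for 9 of the 10 members, 12 windows in all. On both strands they were searched for the ISRE core (GAAA, any 2 bases, GAAA), the GAS element TTCNNNGAA, the κB motif (GGG, any 2 bases, TTTCC), the AP-1 motif TGANTCA and the Smad box GTCTAGAC. The 250 upstream bases are printed 5′ to 3′ in the direction of transcription, with motif matches in capitals.
Nlrp3, transcript start at 59541569, chr11:59541319-59541568, plus strand: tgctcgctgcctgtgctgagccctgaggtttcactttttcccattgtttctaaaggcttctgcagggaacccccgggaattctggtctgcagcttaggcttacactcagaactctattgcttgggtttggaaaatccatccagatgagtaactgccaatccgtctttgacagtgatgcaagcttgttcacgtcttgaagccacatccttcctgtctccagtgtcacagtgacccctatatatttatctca
Nlrp3, transcript start at 59542686, chr11:59542436-59542685, plus strand: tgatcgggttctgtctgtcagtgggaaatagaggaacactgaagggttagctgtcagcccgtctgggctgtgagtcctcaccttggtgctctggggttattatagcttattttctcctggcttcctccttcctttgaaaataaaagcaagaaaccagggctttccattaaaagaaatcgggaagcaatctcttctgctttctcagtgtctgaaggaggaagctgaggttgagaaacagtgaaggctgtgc
Mefv, transcript start at 3718124, chr16:3718125-3718374, minus strand: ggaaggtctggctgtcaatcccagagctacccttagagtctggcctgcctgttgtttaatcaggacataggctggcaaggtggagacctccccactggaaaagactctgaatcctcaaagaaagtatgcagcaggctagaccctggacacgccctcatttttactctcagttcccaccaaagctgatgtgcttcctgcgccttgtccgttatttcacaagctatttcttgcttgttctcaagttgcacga
Nlrp1b, transcript start at 71230733, chr11:71230734-71230983, minus strand: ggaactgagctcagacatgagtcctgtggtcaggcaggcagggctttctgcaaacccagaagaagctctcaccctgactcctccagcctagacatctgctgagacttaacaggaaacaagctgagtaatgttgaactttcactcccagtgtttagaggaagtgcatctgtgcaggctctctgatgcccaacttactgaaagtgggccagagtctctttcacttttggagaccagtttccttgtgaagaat
Casp4, transcript start at 5308849, chr9:5308599-5308848, plus strand: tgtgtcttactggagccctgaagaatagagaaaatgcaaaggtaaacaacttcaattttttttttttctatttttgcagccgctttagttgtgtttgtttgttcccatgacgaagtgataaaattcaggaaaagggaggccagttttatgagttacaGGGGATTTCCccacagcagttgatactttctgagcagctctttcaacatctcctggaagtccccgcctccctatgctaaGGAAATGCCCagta
No window of *Nlrp3*, *Mefv*, *Nlrp1b* or *Nlrc4* held any of the 5 motifs, which says only that these letters are not in these bases. *Casp4* held the κB motif on the coding strand at −93 to −84 and on the other strand at −14 to −5, counted from the first transcribed base, and both matches lay in the windows of both of its starts, which overlap. In all 32851 windows of the table, 1.63% held the κB motif, 3.44% the ISRE core, 8.30% the GAS element, 7.81% the AP-1 motif and 0.213% the Smad box. A match describes letters and does not show that a factor binds.

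*Nlrp3* (ENSMUSG00000032691, chromosome 11, 59541568 to 59566956, plus strand, mm10) encodes the sensor that responds to potassium efflux and many other signs of cell damage. The sEH-/- libraries held 909, 953 and 670 of its counts, against 447, 490 and 451 for the wild-type libraries. All sEH-/- libraries were above all wild-type libraries, also before any correction for depth, although the smallest library of all was an sEH-/- one. On the scale of the fit, the difference was 1.95-fold (95% interval 1.65 to 2.31, log2 fold change 0.97, adjusted p = 0.0058 by edgeR). The 3 genes whose log2 CPM followed *Nlrp3* most closely over the 6 libraries, among 10277 genes averaging 50 counts or more, were *Plcg2* (Pearson r = 0.998), a phospholipase C of immune receptor signalling, *Trpm2* (r = 0.997), a calcium-permeable channel, and *Trib1* (r = 0.997), a pseudokinase. These values are a description, since all 6 points share the split by genotype and the ranking took the highest of many.

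*Mefv* (ENSMUSG00000022534, chromosome 16, 3707218 to 3718097, minus strand) encodes pyrin, the sensor of inactivated RhoA that is mutated in familial Mediterranean fever. It had 103, 119 and 87 counts in sEH-/- against 25, 17 and 29 counts in wild-type libraries. The lowest sEH-/- library held 3 times the counts of the highest wild-type library, and the groups did not overlap. With 4.65-fold (95% interval 3.13 to 6.91, log2 fold change 2.22, SE 0.26, adjusted p = 0.0058 by edgeR), this was the largest difference among the 10 members. It also rested on the fewest counts: sampling of reads alone gives a coefficient of variation of 20.6% in wild-type cells, where the libraries varied by 33.5%.

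*Nlrp1b* (ENSMUSG00000070390, chromosome 11, 71153102 to 71230733, minus strand) encodes a sensor with allelic forms that differ between mouse strains, only some of which respond to anthrax lethal toxin. It had 382, 373 and 249 counts in sEH-/- against 177, 182 and 226 counts in wild-type libraries. The groups did not overlap, and in CPM the lowest sEH-/- library was at 57.7 and the highest wild-type library at 40.5. The difference was 1.83-fold (95% interval 1.49 to 2.26, log2 fold change 0.87, adjusted p = 0.016 by edgeR). *Nlrp1a*, a near copy that lies 8397 bp from *Nlrp1b* on the same strand, had 76, 64 and 29 counts in sEH-/- against 19, 12 and 14 counts in wild-type libraries, and was also called higher (log2 fold change 1.96, SE 0.35, adjusted p = 0.023). Reads that fit both copies equally were removed by the authors, so the counts of either gene come from the bases in which they differ and the split between them is uncertain.

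*Nlrc4* (ENSMUSG00000039193, chromosome 17, 74425438 to 74459142, minus strand) encodes the sensor that acts with NAIP proteins on bacterial flagellin and secretion systems. It had 360, 351 and 229 counts in sEH-/- against 174, 238 and 253 counts in wild-type libraries. The raw counts of the groups overlapped, the sEH-/- library with 229 counts being the smallest library, while in CPM the groups were apart, with 61.6, 70.8 and 53.1 CPM against 38.3, 38.6 and 45.3 CPM. Of the 4 calls, this one was the weakest, at 1.52-fold (95% interval 1.26 to 1.83, log2 fold change 0.60, adjusted p = 0.029 by edgeR). It stood just above the fold limit and was lost without TMM factors (log2 fold change 0.58), with the library total as a covariate (adjusted p = 0.050) and with a replicate block (adjusted p = 0.051).

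The calls also depended on single libraries, as did those of the whole table. Without wild-type replicate 3, 6 genes in all were called instead of 360, and 0 of the 10 members, with adjusted p values by edgeR of 0.072 for *Nlrp3*, 0.065 for *Mefv*, 0.085 for *Nlrp1b* and 0.12 for *Nlrc4*. Without wild-type replicate 2, 25 genes were called, among them *Nlrp3* and *Mefv*, whereas *Nlrp1b* (adjusted p = 0.067) and *Nlrc4* (adjusted p = 0.15) were not. *Nlrc4* was further lost without sEH-/- replicate 2 (adjusted p = 0.080, log2 fold change 0.51) and, by its fold, without wild-type replicate 1 (log2 fold change 0.56). The size of the differences moved less, as the log2 fold change ranged from 0.87 to 1.06 for *Nlrp3*, from 1.94 to 2.38 for *Mefv* and from 0.74 to 0.97 for *Nlrp1b* over these settings.

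*Aim2* (ENSMUSG00000037860, chromosome 1, 173350879 to 173466040, plus strand), the sensor of cytosolic DNA, was the exception among the sensors. It had 712, 694 and 595 counts in sEH-/- against 584, 749 and 730 counts in wild-type libraries. The groups overlapped, at 133 ± 9.98 CPM and 127 ± 4.83 CPM (mean ± SD, n = 3). The difference was 1.05-fold with a 95% interval of 0.934 to 1.18 (adjusted p = 0.63 by edgeR), which does not reach the 1.5-fold limit in either direction.

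*Pycard* (ENSMUSG00000030793, chromosome 7, 127989708 to 127993867, minus strand) encodes the adaptor ASC, which links sensors with a pyrin domain to caspase-1. It had 712, 614 and 592 counts in sEH-/- against 606, 727 and 704 counts in wild-type libraries, and the groups overlapped. The ratio between the genotypes was 1.02 with a 95% interval of 0.902 to 1.14 (adjusted p = 0.90 by edgeR). Its sign depended on the setting, with a log2 fold change of 0.02 in the main fit and −0.016 with the library total as a covariate, so no direction can be given.

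**Figure D1:**
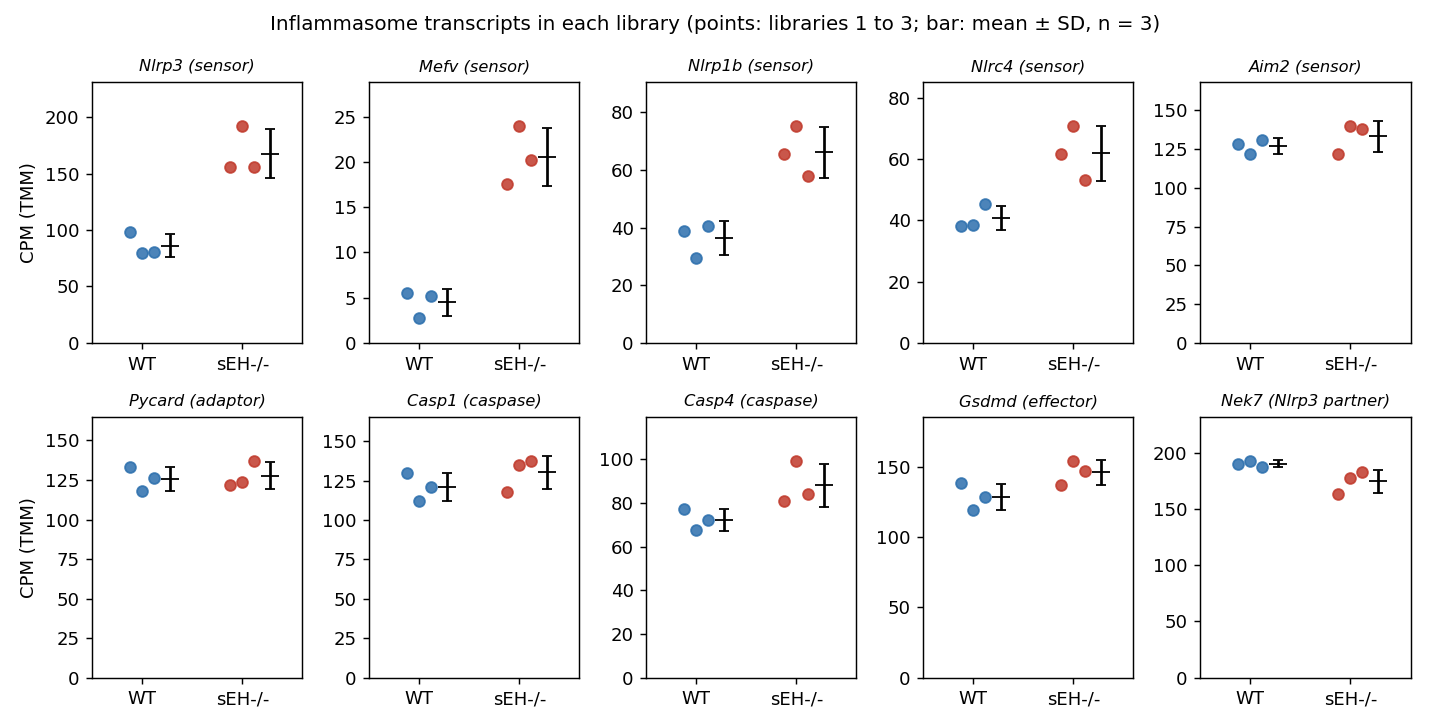
CPM on TMM-normalized library sizes (vertical axes from 0) of the 10 inflammasome transcripts in each wild-type (blue) and sEH-/- (red) library, with the mean and SD of 3 libraries beside the points. The red points lie above all blue points for *Nlrp3*, *Mefv*, *Nlrp1b*, *Nlrc4* and *Casp4* and below them for *Nek7*, and the groups overlap for *Aim2*, *Pycard*, *Casp1* and *Gsdmd*.

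The caspases lie next to each other on chromosome 9, *Casp1* (ENSMUSG00000025888, 5298508 to 5307290) and, after 1537 bp, *Casp4* (ENSMUSG00000033538, 5308828 to 5336783), both on the plus strand. *Casp1*, the protease of the canonical inflammasome, had 689, 668 and 594 counts in sEH-/- against 589, 691 and 674 counts in wild-type libraries. The groups overlapped, and the difference was 1.08-fold with a 95% interval of 0.947 to 1.23 (adjusted p = 0.49 by edgeR). *Casp4*, which encodes the murine caspase-11 that binds cytosolic LPS, had 472, 493 and 363 counts in sEH-/- against 351, 416 and 402 counts in wild-type libraries. In CPM its groups did not overlap, at 80.8, 99.5 and 84.2 CPM against 77.2, 67.5 and 72.1 CPM. The difference of 1.22-fold (95% interval 1.06 to 1.42, unadjusted p = 0.012) failed the correction over all genes, with an adjusted p of 0.10 by edgeR. This is the gene with the κB matches printed above.

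*Gsdmd* (ENSMUSG00000022575, chromosome 15, 75862327 to 75867408, plus strand) encodes gasdermin D, the pore-forming effector of pyroptosis. It had 800, 765 and 634 counts in sEH-/- against 628, 734 and 716 counts in wild-type libraries. In CPM, 2 of the sEH-/- libraries were above all wild-type libraries, and the remaining one lay just under wild-type replicate 1, so that the groups overlapped. The difference was 1.14-fold (95% interval 1.01 to 1.28), with an unadjusted p of 0.038 that did not survive correction (adjusted p = 0.18 by edgeR).

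*Nek7* (ENSMUSG00000026393, chromosome 1, 138482875 to 138620141, minus strand) encodes the kinase-family protein that binds Nlrp3 and bridges its subunits. It had 955, 881 and 791 counts in sEH-/- against 867, 1191 and 1044 counts in wild-type libraries. It was the only member with a lower mean in sEH-/- cells, with 163, 178 and 183 CPM against 191, 193 and 187 CPM, and the groups did not overlap. The ratio of 0.918 had a 95% interval of 0.824 to 1.02 (adjusted p = 0.32 by edgeR), and *Nek7* was not called.

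Over the 10 members, 5 did not overlap between the genotypes with sEH-/- above wild-type and 1 with sEH-/- below, where 11.8% and 14.5% of all tested genes did so in these directions. With 3 libraries against 3, an exact permutation test of a single gene cannot give a p below 0.1. The log2 fold change was above 0 for 9 of the 10 members, against 49.8% of all genes tested. These 9 include *Pycard*, whose sign depended on the setting.

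**Figure D2:**
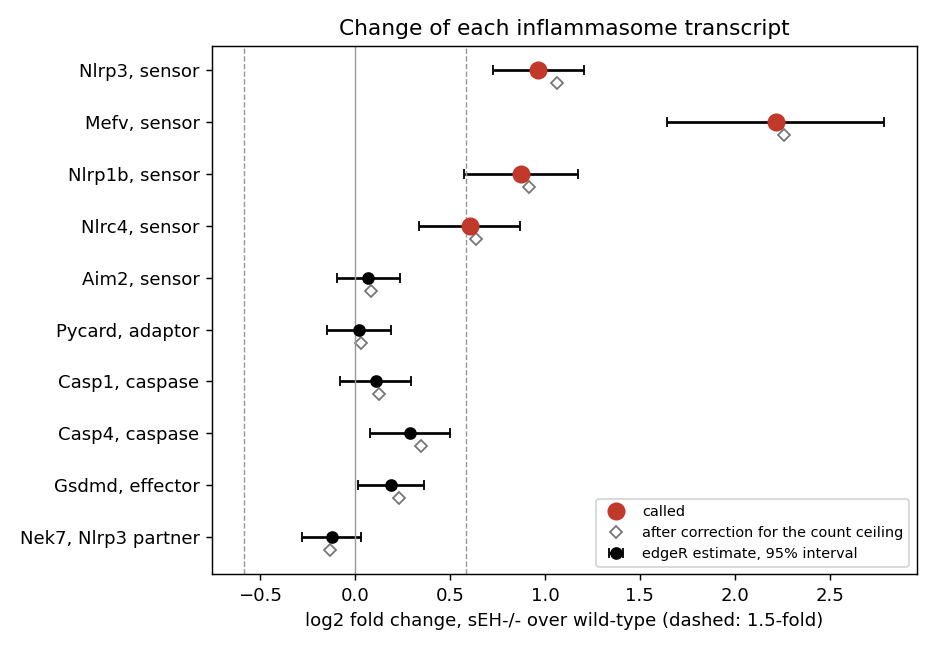
Log2 fold change of sEH-/- over wild-type for each of the 10 members (circles, red where called) with its 95% interval, and the estimate after a correction for the count ceiling described in the text (diamonds). The intervals of the 4 called sensors lie above 0, from 0.34 at the lowest bound for *Nlrc4* to 2.79 at the highest for *Mefv*. Those of *Casp4* (0.077 to 0.50) and *Gsdmd* (0.012 to 0.36), which were not called, also lie above 0. Those of *Aim2*, *Pycard*, *Casp1* and *Nek7* include 0.

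Ratios of counts within a library use no library total and compare the sensors with the machinery they act through. The denominators were members that had not been called, and every numerator except *Aim2* had been called. The ratios therefore restate those calls without a library total and are no separate test of them. For every count of *Pycard* there were 1.28, 1.55 and 1.13 counts of *Nlrp3* in sEH-/- libraries, compared with 0.738, 0.674 and 0.641 in wild-type ones, a 1.92-fold difference without overlap. Likewise, the count ratio of *Nlrp3* to its partner *Nek7* was 0.952, 1.08 and 0.847 in sEH-/- against 0.516, 0.411 and 0.432 in wild-type libraries (2.12-fold). In wild-type cells *Pycard* thus had more counts than *Nlrp3* in every library, and in sEH-/- cells it had fewer in every library. The ratio of *Mefv* to *Pycard* was 4.70-fold higher, that of *Nlrp1b* to *Casp1* 1.70-fold higher and that of *Nlrc4* to *Casp1* 1.41-fold higher in sEH-/- cells, each without overlap. For these 5 ratios, and for that of *Nlrp3* to *Casp1* (1.81-fold), the two-sided exact permutation p was 0.1, the smallest that 3 against 3 libraries allow, whereas the ratio of *Aim2* to *Pycard* differed by 1.03-fold (exact permutation p = 0.6). Adjusted over the 7 ratios, the former p became 0.12. These ratios compare counts, not levels per length, and they still vary with depth where a dense gene follows it less: between sEH-/- replicates 1 and 3 the count ratio was 1.16 for *Casp1* but 1.53 for *Nlrp1b*.

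Levels can be set beside each other only per length, here as CPM per kilobase of the principal transcript of each gene (RPKM). In wild-type cells the order was *Casp1* with 80.7 ± 5.80 RPKM (SD, n = 3), *Gsdmd* with 71.7 ± 5.29, *Casp4* with 50.3 ± 3.37, *Aim2* with 44.7 ± 1.70, *Nek7* with 36.2 ± 0.583, *Pycard* with 33.1 ± 2.01, *Nlrp3* with 21.4 ± 2.60, *Nlrp1b* with 8.79 ± 1.44, *Nlrc4* with 8.62 ± 0.845 and *Mefv* with 1.45 ± 0.485 RPKM. The libraries of the neighbours *Casp1* and *Gsdmd*, and of *Nlrp1b* and *Nlrc4*, overlapped, and the other neighbouring pairs did not. The 4 called sensors were thus the 4 members with the lowest level per kilobase of principal transcript in wild-type cells. In sEH-/- cells *Nlrp3* stood at 41.7 ± 5.29 RPKM, *Pycard* at 33.6 ± 2.21 and *Nek7* at 33.3 ± 1.96 RPKM, while *Nlrp1b* (16.0 ± 2.13), *Nlrc4* (13.1 ± 1.87) and *Mefv* (6.65 ± 1.04) kept the last places. The order rests on the length chosen. Over all its annotated exons, *Casp4* had 19.5 RPKM in wild-type cells and would fall below *Nlrp3*. Divided by the coding length alone, the CPM of *Pycard* (221 ± 14.5 per kilobase) and *Nek7* (193 ± 11.4) exceeded that of *Nlrp3* (54.1 ± 6.87) in sEH-/- cells too. These values still hold the reads of untranslated exons, so they are not levels of the coding parts. The coding part is 579 of 3800 bases of the principal transcript for *Pycard*, 906 of 5258 for *Nek7* and 3099 of 4021 for *Nlrp3*.

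**Figure D3:**
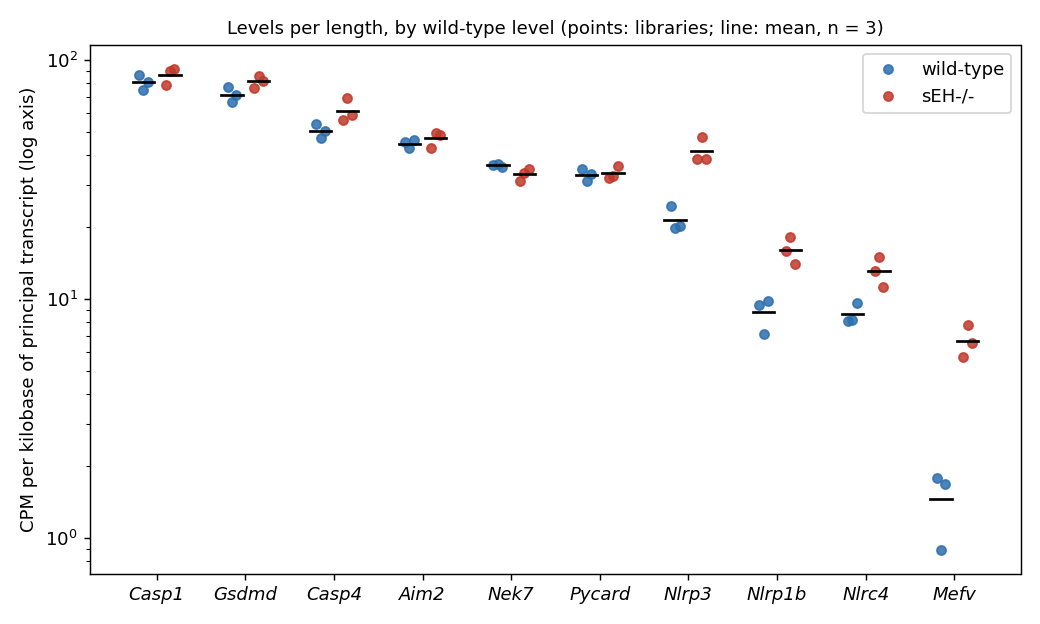
CPM per kilobase of principal transcript (log axis) of each member in wild-type (blue) and sEH-/- (red) libraries, ordered by the wild-type mean, with lines at the means of 3 libraries. *Nlrp3*, *Nlrp1b*, *Nlrc4* and *Mefv* are the lowest in wild-type cells, from 21.4 down to 1.45, and their red points lie above the blue ones.

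Level per length and counts per base divide by the same length, so the members highest in the one are highest in the other. At many counts per base, counts of this matrix followed depth the least. The authors had removed duplicate reads, and the counts of abundant genes stopped near 1 per base: the protease gene *Ctss*, with 1358 exonic bases, had 1303 to 1343 counts in all 6 libraries, and *Lyz2*, with 1316, had 1153 to 1173. Between the largest and the smallest sEH-/- library, whose totals differed by 1.32-fold, the median count ratio fell from 1.51 for genes with 0.01 to 0.05 counts per base to 1.11 for genes with 0.5 to 1 counts per base. The median log2 fold change between the genotypes also rose over these ranges. It was −0.041 at 0.01 to 0.05, 0.045 at 0.3 to 0.5 and 0.081 at 0.5 to 1 counts per base. *Casp1* carried 0.43, *Gsdmd* 0.40, *Casp4* 0.29 and *Aim2* 0.24 counts per base of its principal transcript, and *Nlrp3* 0.16, *Nlrp1b* 0.064, *Nlrc4* 0.057 and *Mefv* 0.020. *Pycard* and *Nek7* carried 0.17 and 0.18. All their counts divided by their short coding parts alone give 1.14 and 1.05 per coding base, with reads of untranslated exons included. These values therefore cannot be set against the limit of about 1 count per base. When the counts were corrected for a ceiling of 1 count per base, an alternative chosen after seeing the data, the same 4 members were called and the other 6 were not. The log2 fold change became 1.06 for *Nlrp3*, 0.35 for *Casp4* (adjusted p = 0.075 by edgeR), 0.23 for *Gsdmd* (adjusted p = 0.11), 0.13 for *Casp1* and 0.031 for *Pycard*. Whether a denser count hides a difference in *Pycard* or *Nek7* beyond this correction was not tested.

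**Figure D4:**
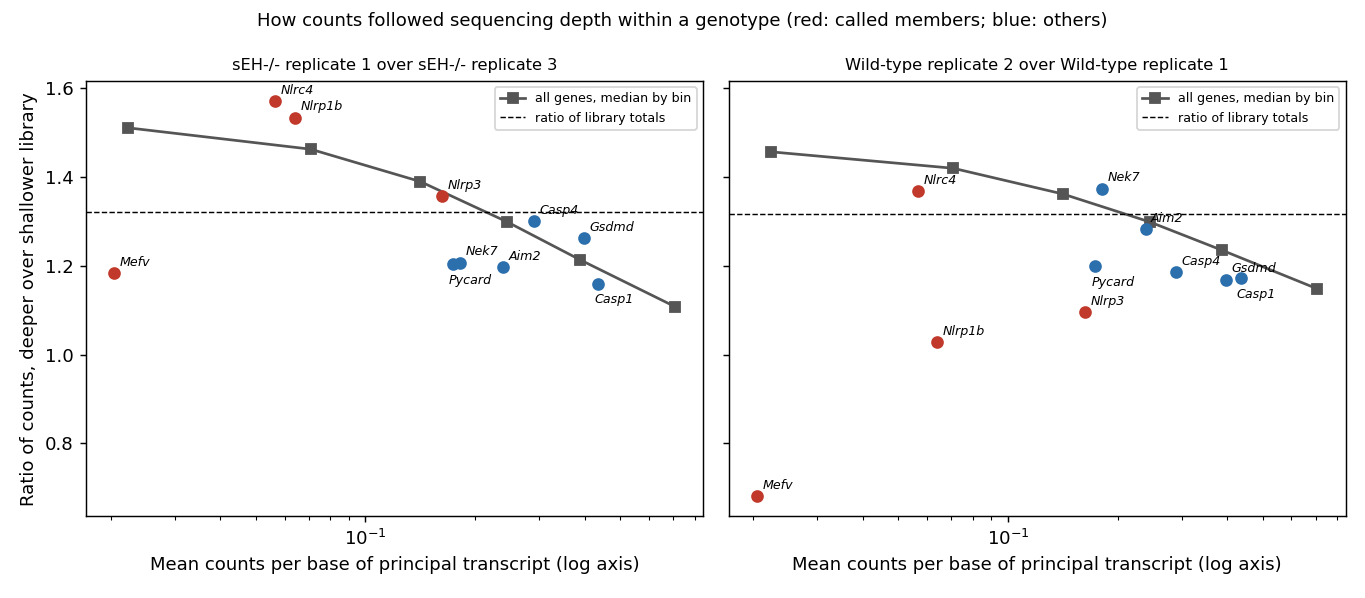
Ratio of counts between a deeper and a shallower library of one genotype against the mean counts per base (log axis), as medians of all genes in 6 bins (grey squares) and for the called (red) and other (blue) members, with the ratio of the library totals dashed. The medians fall from 1.51 to 1.11 in the sEH-/- pair and from 1.46 to 1.15 in the wild-type pair, and *Casp1* and *Gsdmd* lie toward the dense end.

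Other sensors and NOD-like receptors were compared in the same way. This list, too, was drawn up with earlier results of these data known. Of 19 listed, 15 were in the matrix and tested. Only *Nlrp1a* was called higher and 0 lower by edgeR, where 1.51% and 1.10% of all genes tested were. By the adjusted p alone, 4 were higher (2.39% of all genes tested were), the remaining 3 being *Nlrc5*, the transactivator of MHC class I genes (log2 fold change 0.51, adjusted p = 0.038), the RNA sensor *Ddx58* (0.48, adjusted p = 0.033) and the muramyl dipeptide sensor *Nod2* (0.45, adjusted p = 0.0497), the last 2 chosen after their values were seen. *Naip2*, which hands bacterial secretion proteins to Nlrc4, had the most counts of the list, with 1517 to 1855 in sEH-/- against 1461 to 1768 in wild-type libraries, and was not called (log2 fold change 0.14, adjusted p = 0.37). Its near copies make its count uncertain. In all, 13 of the 15 had a log2 fold change above 0, against 49.8% of all genes tested, with a median of 0.16. At an unadjusted p below 0.05 by edgeR, 5 were higher and 0 lower, where 11.1% and 12.2% of all genes tested were. The call of *Nlrp1a* was lost without sEH-/- replicate 2 (adjusted p = 0.061), wild-type replicate 2 (adjusted p = 0.12) or wild-type replicate 3 (adjusted p = 0.13).

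Regulators that act on inflammasomes, such as ion channels, kinases, ubiquitin enzymes and death-domain proteins, were called in neither direction. Of 42 listed, 41 were tested, and 0 were called by edgeR, DESeq2 or limma-voom. Over all genes tested, edgeR called only 1.51% higher and 1.10% lower, so 0 calls in a list of this size says little. At an unadjusted p below 0.05 by edgeR, 10 were higher and 1 lower, where 11.1% and 12.2% of all genes tested were. Their log2 fold changes lay between −0.25 (*Birc2*) and 0.58 (*Ptpn22*), with a median of 0.090. *Syk*, the kinase with the most counts of the list, had 2651 to 3149 counts in sEH-/- against 2811 to 3417 counts in wild-type libraries (log2 fold change −0.027, adjusted p = 0.89).

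Among the substrates and outlets of the inflammasome, 14 genes were tested. At an unadjusted p below 0.05 by edgeR, 3 were higher and 0 lower (11.1% and 12.2% of all genes tested). Of the 14, 2 were called higher and 0 lower by edgeR, where 1.51% and 1.10% of all genes tested were. They were *Il1b*, with 319, 144 and 140 counts in sEH-/- against 51, 29 and 46 counts in wild-type libraries (log2 fold change 2.31, adjusted p = 0.011), and *Gsdme*, a gasdermin cut by caspase-3, with 145, 121 and 73 against 71, 66 and 56 counts (log2 fold change 0.89, SE 0.22, adjusted p = 0.049). *Il18*, the other cytokine that caspase-1 cleaves, had 115, 154 and 93 counts in sEH-/- against 65, 83 and 92 counts in wild-type libraries, which did not overlap. Its log2 fold change of 0.71 missed the threshold by edgeR (adjusted p = 0.065), and DESeq2 called it. The antagonists of both cytokines, *Il1rn* and *Il18bp*, were the genes of the list with the most counts and were not called, with log2 fold changes of 0.0068 (95% interval −0.17 to 0.18) and 0.071 (−0.16 to 0.30). The call of *Il1b* was lost without wild-type replicate 3 (adjusted p = 0.089). That of *Gsdme* was lost without either of sEH-/- replicates 1 and 2 or wild-type replicates 2 and 3, with a highest adjusted p of 0.22, and also with the library total as a covariate (adjusted p = 0.081) and with a replicate block (adjusted p = 0.054).

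**Figure D5:**
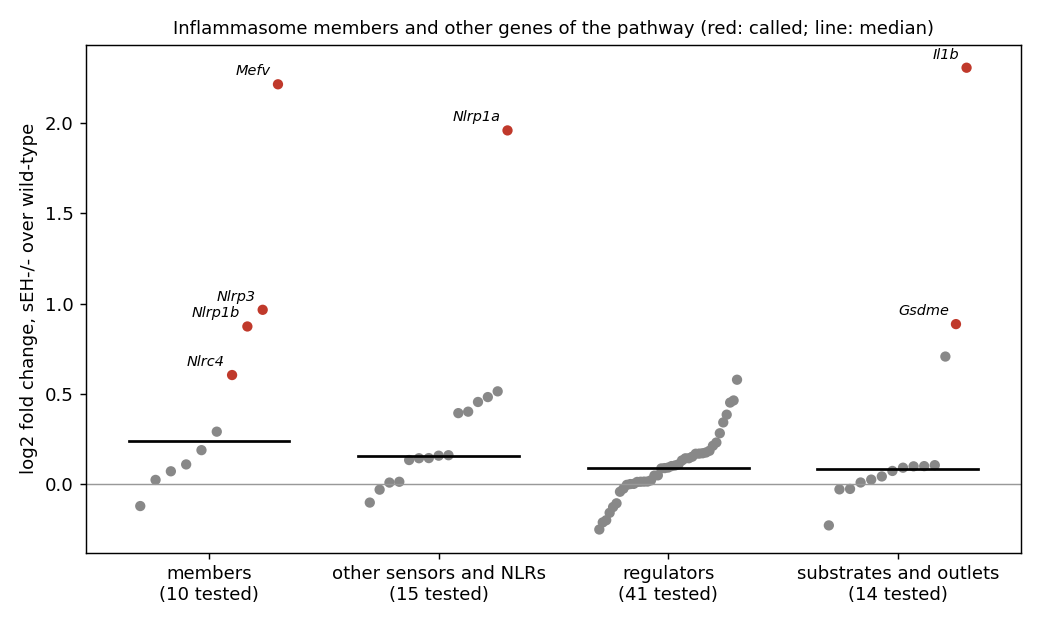
Log2 fold change of sEH-/- over wild-type for the members and the tested genes of the 3 other lists, with called genes in red and named and a line at the median of each list. The medians lie at 0.24, 0.16, 0.090 and 0.080, and the called genes are *Nlrp3*, *Mefv*, *Nlrp1b*, *Nlrc4*, *Nlrp1a*, *Il1b* and *Gsdme*.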

How the data were processed

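The authors deposited raw counts per gene, not normalized, for 6 libraries. According to the methods, reads were trimmed with Trimmomatic, mapped by STAR against mm10 and the Ensembl gene models, cleared of duplicates (Picard) and of reads that were mitochondrial, ribosomal or mapped to several places, then counted over exons with featureCounts on the correct strand, without reads over several genes. The submitters' processing notes name STAR 2.7.7a, Picard 2.21.7 and featureCounts 1.6.5, the methods other versions, and both also name different library kits.

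Groups were taken from the labels. The counts were tested in R 4.3.3 with edgeR 4.0.16 (TMM, factors 0.982 to 1.03, glmQLFit and glmQLFTest, no covariate) over genes with a mean above 5 counts (13785 genes), and p-values were adjusted over all of them. Intervals are 95% intervals of the fit. DESeq2 1.42.0, limma 3.58.1, other filters and scalings, thinning, a replicate block and the omission of each library were alternatives, and the procedure was tested on simulated data. Replicates were 1 library per mouse, and no pair of one genotype agreed within sampling noise (chi-square per degree of freedom 2.24 to 4.89). Lengths came from GENCODE M21. The members and lists were chosen with earlier results of these data known. Named genes were the members, *Ephx2*, called genes of the lists and the 2 of each list with the most counts not called, *Il1b*, *Il18* and the 3 genes closest to *Nlrp3*. Genes outside this rule, including *Ctss*, markers, *Ddx58*, *Nod2*, *Birc2* and *Ptpn22*, were chosen after their values were seen. A gene that this rule names is not reported here.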

Additional observations from a re-analysis of the deposited data

How the results depend on the processing

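The same-numbered libraries of the genotypes did not deviate together (r of −0.10, −0.29 and −0.042). With 3 libraries per genotype this cannot show whether the mice were paired, and the labels do not say. With a replicate block 234 genes were called instead of 360, *Nlrc4* was lost (log2 fold change 0.60, adjusted p = 0.051), and *Gsdme* was lost, leaving 1 substrate gene. The library total as a covariate gave 171 genes, 1 substrate gene (without *Gsdme*), *Nlrc4* at 0.63 without a call and *Pycard* reversed at −0.016. Without TMM factors, *Nlrc4* was at 0.58. Without the fold limit, 553 genes were called, with 4 other sensors higher, and with the ceiling correction over principal transcripts, 2 other sensors were called higher. No other planned setting with all libraries moved a member's call.

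Leaving out each library in turn gave 6 to 625 genes called, 0 to 4 members called higher, 0 to 3 other sensors, 0 to 1 regulators and 0 to 2 substrates. The log2 fold change ranged from 0.87 to 1.06 for *Nlrp3*, 1.94 to 2.38 for *Mefv*, 0.74 to 0.97 for *Nlrp1b*, 0.51 to 0.71 for *Nlrc4* and −0.025 to 0.062 for *Pycard*. The cause was not tested. Of 180 settings over the 10 members, 166 kept the direction and the side of the threshold, 11 lost a call and 3, all of *Pycard*, reversed. At 4400197 to 6096440 counts per library, *Mefv* had the fewest counts of the members, and intervals cover the spread between these mice only.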
